A study of Mus musculus with 12 samples.

Results

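The *Ms4a* genes encode small membrane proteins that cross the membrane several times, with both ends inside the cell. *Ms4a1* encodes CD20, the surface protein of B cells, and gave the family its common name of CD20-like proteins. Other members are known from T cells and from monocytes, macrophages and microglia, the myeloid cells that take part in experimental autoimmune encephalomyelitis (EAE), a mouse model of multiple sclerosis in which leukocytes enter the central nervous system. The genes described here are the 8 members *Ms4a1*, *Ms4a4a*, *Ms4a4b*, *Ms4a4c*, *Ms4a6b*, *Ms4a6c*, *Ms4a6d* and *Ms4a7*, chosen by name. They are 8 of the 21 *Ms4a* genes and of the 50457 genes that each table lists.

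RNA-Seq was performed on whole brains of 12 mice collected on Day 18, and per the study's methods these were female C57BL/6J mice aged 8 to 12 weeks at purchase. All 12 had been immunized with a MOG peptide in complete Freund's adjuvant with heat-killed *Mycobacterium tuberculosis* (HKMT) and without pertussis toxin, and no healthy brain was analysed here. EAE/CBD mice were then dosed orally with cannabidiol (CBD) at 75 mg/kg in corn oil for 5 days, starting on the day after immunization, and EAE/CO mice with corn oil (CO) alone, and each treatment was divided into asymptomatic and symptomatic mice by clinical score. By the labels, 3 of the 7 EAE/CBD mice were asymptomatic and 4 symptomatic, and 3 of the 5 EAE/CO mice were asymptomatic and 2 symptomatic, from cohorts A and B. The mouse labelled B25 is an EAE/CBD symptomatic mouse in the labels, but the study's list of scores names it among the EAE/CO symptomatic mice sequenced, which would make all groups equal in size. That list numbers the mice of both cohorts by treatment, and the number of B25 falls among the EAE/CO mice. The labels of all other mice follow this numbering. By that list B25 entered the EAE/CO symptomatic mean. The tables hold no values per mouse and so cannot show this directly. Each whole brain mixes all cell types, so fewer cells of a type and less RNA per cell cannot be told apart.

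For each gene, 1 value per treatment could be used. It is the authors' larger mean of the asymptomatic and the symptomatic group, from the table of the EAE/CBD mice and from that of the EAE/CO mice, and it is called the level below. A level does not say which of both groups it belongs to, and it carries no spread between mice. No difference below could therefore be tested, and none is a difference between asymptomatic and symptomatic mice, which were not compared here. The unit is not stated. The levels sum to 366929 in the EAE/CBD and 358949 in the EAE/CO table, and multiplied by the length of each gene's main GENCODE transcript in kilobases they sum to 934921 and 920136. A value per kilobase and per 1000000 mapped reads would give about 1000000, so levels were compared between genes on the reading that they are per length. The number of reads behind each level is unknown.

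All 21 *Ms4a* genes lie in 1 cluster on chromosome 19 of GRCm39, from 10939653 to 11618215 in the authors' tables, with other listed genes among them. The 8 members fill 355126 bp of this stretch, from the start of *Ms4a1* (chr19:11227043-11243513, minus strand) to the end of *Ms4a6d* (chr19:11563970-11582168, minus strand). *Ms4a7* (chr19:11298403-11313510) is on the minus strand as well. The other 5 members are on the plus strand, in the order *Ms4a4a* (chr19:11352827-11370682), *Ms4a4c* (chr19:11382081-11404610), *Ms4a4b* (chr19:11420922-11440913), *Ms4a6c* (chr19:11446718-11464433) and *Ms4a6b* (chr19:11495923-11507767). In the GENCODE annotation the main transcript of each member had 7 exons, 6 of them coding. *Ms4a1* overlapped the listed gene *4930526L06Rik*, *Ms4a4c* overlapped *Gm5692* and *Ms4a6c* overlapped *BE692007*, each on the opposite strand and each listed at 0 in both tables. Whether reads were counted by strand is not stated.

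The members are copies of each other to different degrees, which bears on how well their reads can be told apart. The proteins encoded by the main transcripts ranged from 217 residues for *Ms4a6c* to 291 for *Ms4a1*, and 6 of the 8 members, all but *Ms4a1* and *Ms4a4a*, had 4 separate hydrophobic stretches on the Kyte-Doolittle scale, with 3 in *Ms4a1* and 2 in *Ms4a4a*. *Ms4a4b* and *Ms4a4c* were the closest pair, with 84.5% identical residues. *Ms4a6b* shared 72.9% with *Ms4a6c* and 71.3% with *Ms4a6d*, and *Ms4a6c* shared 65.0% with *Ms4a6d*. The other 24 of the 28 pairs of members had 24.2% to 47.7%, so that *Ms4a1*, *Ms4a7* and *Ms4a4a* stand apart in sequence. The longest identical coding stretches of 3 close pairs are shown because the part of a read that falls within them does not tell both genes apart. Each line gives 1 copy 5′ to 3′ on the coding strand, read from GRCm39, with up to 12 further coding bases on each side, and capitals mark the bases at which both copies differ. In the first pair, 127 bases are identical between *Ms4a4b* (within chr19:11435213-11438641) and *Ms4a4c* (within chr19:11395060-11398642), across the boundaries of exons.
*Ms4a4b*: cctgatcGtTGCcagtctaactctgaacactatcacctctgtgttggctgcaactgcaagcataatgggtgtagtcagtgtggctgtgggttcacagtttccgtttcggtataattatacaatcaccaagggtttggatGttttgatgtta
*Ms4a4c*: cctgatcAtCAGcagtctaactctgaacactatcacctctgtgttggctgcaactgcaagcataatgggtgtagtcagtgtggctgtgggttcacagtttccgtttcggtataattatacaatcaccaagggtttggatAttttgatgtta
In the second pair, 81 bases are identical between *Ms4a6b* (within chr19:11497790-11499079) and *Ms4a6d* (within chr19:11579284-11580569, minus strand), again across exons.
*Ms4a6b*: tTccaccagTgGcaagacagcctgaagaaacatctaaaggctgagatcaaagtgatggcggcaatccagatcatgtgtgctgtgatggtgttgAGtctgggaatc
*Ms4a6d*: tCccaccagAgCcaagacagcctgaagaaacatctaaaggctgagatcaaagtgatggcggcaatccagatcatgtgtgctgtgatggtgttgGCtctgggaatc
In the third pair, 55 bases are identical between *Ms4a6b* (chr19:11504101-11504179) and *Ms4a6c* (chr19:11455569-11455647), each within 1 exon.
*Ms4a6b*: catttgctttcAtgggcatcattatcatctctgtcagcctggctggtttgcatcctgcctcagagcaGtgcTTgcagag
*Ms4a6c*: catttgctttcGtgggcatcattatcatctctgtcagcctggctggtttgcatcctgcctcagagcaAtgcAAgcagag

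Reads were 150 bases long and paired. No pair of members shared an identical stretch of 150 bases in their main transcripts, so a whole read from these without errors could be told apart between members. Other transcripts and genes outside the *Ms4a* family were not compared. However, 3 of the 28 pairs of members shared at least 75 bases. These were *Ms4a4b* with *Ms4a4c* (127 bases), *Ms4a6b* with *Ms4a6c* (96 bases, counting untranslated parts) and *Ms4a6b* with *Ms4a6d* (81 bases). Outside the members, *Ms4a4b* shared 193 bases with *Ms4a4d*, mostly outside the coding sequence, in which the longest shared stretch was 35 bases. This was the only 1 of 132 pairs of *Ms4a* genes compared with a stretch over the read length. *Ms4a4b* also shared 112 bases with *Ms4a2*, while their longest shared coding stretch was 10 bases. These stretches are from GENCODE transcripts, and the authors' gene ends often differ. Only 1 of the 8 members had the same start and end in both, and *Ms4a4b* differed by 8365 bp at its start and 3506 bp at its end. Whether the authors counted reads in the untranslated stretches is therefore not known. How shared reads were divided between genes is not stated. By shared sequence alone, the separate levels of *Ms4a4b*, *Ms4a4c*, *Ms4a6b*, *Ms4a6c* and *Ms4a6d* are less certain than those of *Ms4a1*, *Ms4a4a* and *Ms4a7*. The level of *Ms4a1* is uncertain for another reason, because it is close to the precision of the deposited values.

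**Figure D1:**
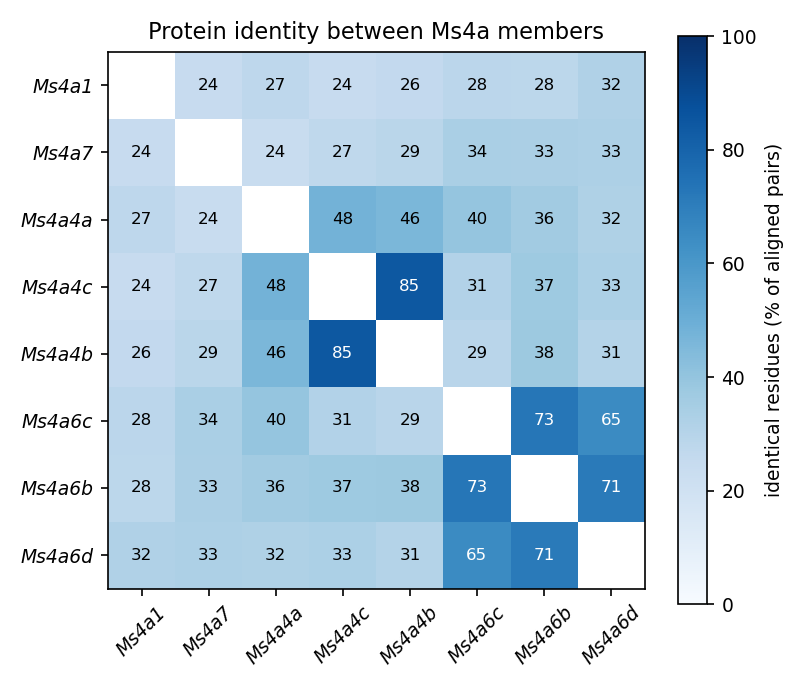
Percentage of identical residues among aligned residue pairs for the proteins of the 8 members, from main GENCODE transcripts. The dark blocks are *Ms4a4b* with *Ms4a4c* (84.5%) and the 3 *Ms4a6* genes (65.0% to 72.9%), and every other pair is at 47.7% or less.

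The 3 *Ms4a6* genes made up most of the expression of the members. *Ms4a6d*, expressed by macrophages and microglia, was highest, with a level of 11.44 in the EAE/CBD table and 10.3 in the EAE/CO table. *Ms4a6c*, known from monocytes and macrophages, followed at 8.13 and 7.27. *Ms4a6b*, found in T cells as well as in myeloid cells, lay at 3.78 and 3.97. Together these 3 genes made up 70.5% of the summed level of the 8 members in the EAE/CBD table and 69.1% in the EAE/CO table. *Ms4a6d* stood 3.03-fold above *Ms4a6b* in the EAE/CBD table and 2.59-fold in the EAE/CO table. Among genes with a level above 0, of which the tables held 17825 and 17625, *Ms4a6d* was at percentile 71.6 and 69.5, and *Ms4a6b* at percentile 48.2 and 49.5.

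*Ms4a7* is a marker of macrophages at the borders of the brain and of macrophages that replace microglia, and homeostatic microglia express little of it. Its level was 4.04 in the EAE/CBD table and 3.15 in the EAE/CO table. It exceeded *Ms4a6b* in the EAE/CBD table by 0.26 and lay below it in the EAE/CO table. Without values per mouse, it is not known whether these neighbours differ beyond the spread between mice.

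The 3 *Ms4a4* genes among the members had levels between 1.17 and 2.64. *Ms4a4b*, which is expressed by T cells and modulates their activation, lay at 2.34 in the EAE/CBD and 2.64 in the EAE/CO table, at percentile 39.6 and 41.7 of genes above 0. *Ms4a4c*, known from myeloid cells, had a level of 1.46 in the EAE/CBD table and 2.6 in the EAE/CO table. *Ms4a4a*, whose human counterpart marks alternatively activated macrophages, had the reverse, with 1.77 and 1.17. *Ms4a4a* and *Ms4a4c* thus changed places in the order of levels between both tables. *Ms4a4b* was 1.6-fold above its close copy *Ms4a4c* in the EAE/CBD table and 1.02-fold in the EAE/CO table. Their summed level was 3.8 and 5.24. Because levels are read as per length and the main transcripts differ in length, this sum also depends on how shared reads were divided.

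*Ms4a1*, the B cell gene, was by far the lowest member, with a level of 0.16 in the EAE/CBD table and 0.07 in the EAE/CO table. It was at percentile 13.6 and 8.34 of the genes above 0. *Ms4a6d* exceeded it 71.5-fold in the EAE/CBD and 147-fold in the EAE/CO table. Its levels are close to the precision of 2 decimals with which they were deposited. Rounding alone allows a ratio of the EAE/CBD to the EAE/CO level between 2.07 and 2.54.

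**Figure D2:**
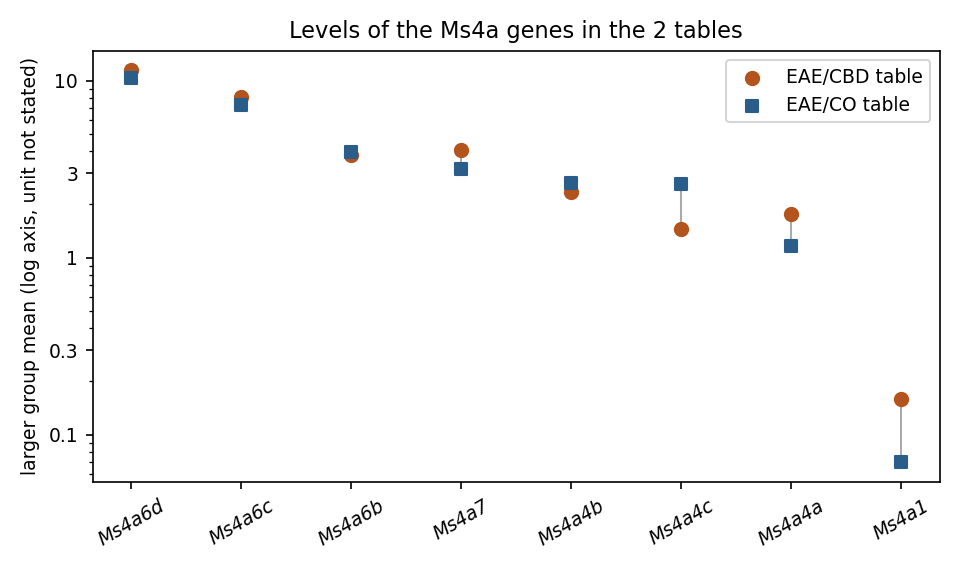
Level of each member, as the authors' larger group mean on a log axis, in the EAE/CBD table (circles) and the EAE/CO table (squares), ordered by the EAE/CO level. There is 1 value per gene and table and so no error bar. *Ms4a6d* is highest (11.44 and 10.3) and *Ms4a1* lowest (0.16 and 0.07) in both.

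The order of the members was similar in both tables. *Ms4a6d*, *Ms4a6c*, *Ms4a4b* and *Ms4a1* held the same place among the 8, while *Ms4a6b* and *Ms4a7*, and *Ms4a4a* and *Ms4a4c*, stood in opposite order. The members lay at a level of at least 1 in both tables except *Ms4a1*. Their summed level was 33.12 in the EAE/CBD and 31.17 in the EAE/CO table, a log2 ratio of 0.09.

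The levels of EAE/CBD mice were then set against those of EAE/CO mice. The tables may have been normalized separately, and the larger mean can belong to asymptomatic mice in one table and to symptomatic mice in the other, so these ratios are no effect of CBD. Over the 12464 genes that reached a level of 1 in both tables the median log2 ratio was 0.04, and percentiles 5 and 95 were -0.38 and 0.45. Of these genes, 56.5% were higher in the EAE/CBD table. Of the members, 5 were higher and 3 lower in that table, a share near that of all genes, with a median of 0.16. *Ms4a4c* had the lowest log2 ratio, -0.83, at percentile 0.333 of all genes. *Ms4a4a*, at 0.60, was at percentile 97.7, and *Ms4a1*, at 1.19, at percentile 99.8, although its own level is below 1. These 3 members lay outside the range between percentiles 5 and 95, and they have the 3 lowest levels in the EAE/CBD table.

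The other 5 members lay within that range. *Ms4a7* had a log2 ratio of 0.36, *Ms4a6c* of 0.16, *Ms4a6d* of 0.15, *Ms4a6b* of -0.07 and *Ms4a4b* of -0.17. How far scatter depends on the level was not tested. For a comparison nearer in level, the members were also placed among the 8169 genes with levels from 1 to 15 in both tables. This range was chosen after the values were seen. There percentiles 5 and 95 were -0.39 and 0.49, and the same 3 members were outside. *Ms4a1* is itself below this band, so the band does not cover its level. *Ms4a4a* and *Ms4a4c* are inside it, near its lower limit, at percentiles 97.1 and 0.349 of its genes. Because the band reaches up to 15, it does not show the scatter near its lower limit alone. For *Ms4a4b* and *Ms4a4c* together the log2 ratio was -0.46, and for the 3 *Ms4a6* genes together 0.12.

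**Figure D3:**
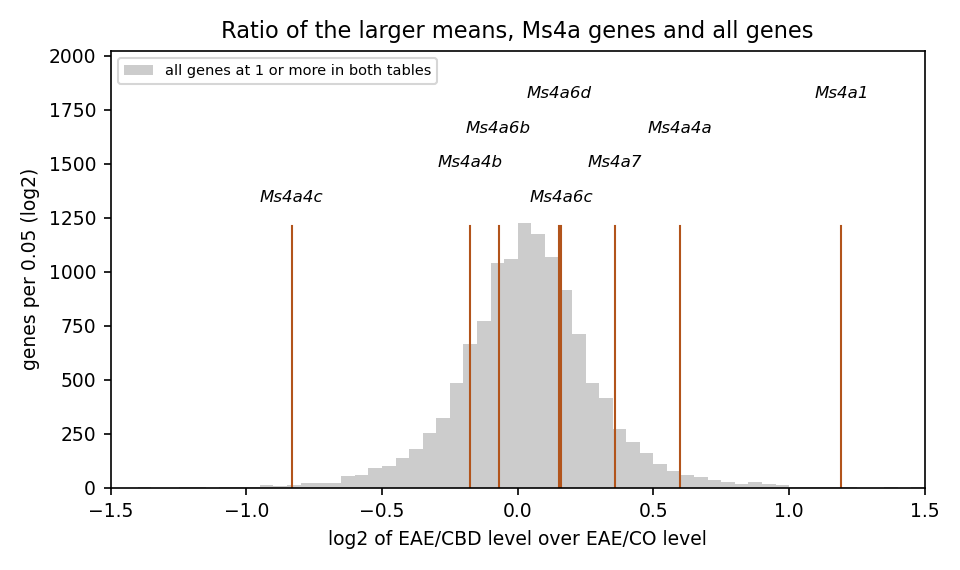
Log2 of the EAE/CBD level over the EAE/CO level (x axis) for the 8 members (lines) and for the 12464 genes that reached a level of 1 in both tables (grey histogram, y axis in genes per 0.05). *Ms4a4c* (-0.83), *Ms4a4a* (0.60) and *Ms4a1* (1.19) lie outside the range between percentiles 5 and 95 of these genes (-0.38 to 0.45), and the other 5 members inside. Genes beyond the plotted range are not drawn.

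Markers of the cells that carry these genes were measured in the same tables, as 9 lists with 43 genes. The defining markers of brain cells were present, from *Snap25*, a synaptic protein gene of neurons, at 687.84 and 767.3, to *Gfap*, the astrocyte filament gene, at 216.74 and 155.61, and *Mog*, a myelin protein gene, at 60.78 and 48.28. The lowest gene of each of these 3 lists, *Rbfox3* for neurons, *Aqp4* for astrocytes and *Mog* for oligodendrocytes, had a level of at least 8.81. Of the 7 B cell genes, *Ighm*, the heavy chain of IgM, was listed at 0 in both tables, and the lowest of the others was *Pax5*, a B cell transcription factor gene, at 0.12 and 0.1. The highest was *Cd22*, a B cell surface receptor gene, in the EAE/CBD table (1.17) and *Cd79a*, a subunit of the B cell receptor, in the EAE/CO table (1.59). The 37 genes of the mitochondrial genome were also listed at 0, so a 0 in these tables need not mean that a transcript is absent. The B cell list was lower in the EAE/CBD table for 4 genes and higher for *Pax5* and *Cd22* (1.17 and 0.74), with a summed log2 ratio of -0.32. The ratio of *Ms4a1* had the opposite sign.

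Genes of T and NK cells, with *Cd3g* of the T cell receptor complex highest at 5.19 in the EAE/CO table and *Cd8a*, a coreceptor, lowest at 0.25 in the EAE/CBD table, were lower in the EAE/CBD table in 6 of 7 and equal in 1. Their summed levels were 14.4 and 19.72 and the log2 ratio -0.45, beside -0.17 for *Ms4a4b*. The 6 microglia genes were all higher in the EAE/CBD table, with a summed log2 ratio of 0.19. The lowest of them was *Sall1*, a microglial transcription factor gene, at 4.22 and 3.17. The gap was smallest for *Tmem119*, at 21.91 and 21.87. Over all genes at a level of at least 1 in both tables, 56.5% were higher in the EAE/CBD table. The monocyte list was split, with 3 genes higher and 2 lower and summed levels of 49.13 and 44.4. The higher sum in the EAE/CBD table rested on *Chil3*, at 18.55 and 7.18. Without this gene the EAE/CBD sum is the lower one. The list ranged from *Ly6c2*, a surface protein gene of inflammatory monocytes, at 23.38 and 29.83, to *Vcan*, a proteoglycan gene, at 1.4 and 0.97. The border macrophage list, to which the known pattern of *Ms4a7* belongs, had 4 genes higher and 1 lower, with summed levels of 7.87 and 8.24. In it *Pf4*, a chemokine gene, was lower in the EAE/CBD table (2.91 and 4.45) and *Lyve1*, a hyaluronan receptor gene, had the lowest levels (0.26 and 0.23). The 4 mast cell genes were near 0, from *Cpa3* at 0.06 in the EAE/CBD table to *Tpsb2* at 0.2 in the same table, both mast cell protease genes, and *Ms4a2*, a subunit of the mast cell IgE receptor, was listed at 0.

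Marker genes of other brain cell types also differed between both tables. Astrocyte genes had a summed log2 ratio of 0.45 and oligodendrocyte genes of 0.39, all 3 of each list higher in the EAE/CBD table, while the 3 neuron genes were lower with -0.20. These sums lay within percentiles 5 and 95 of single genes at a level of at least 1 in both tables (-0.38 and 0.45). The astrocyte sum was at the upper edge. A sum rests mostly on its highest genes, so it is not the same measure as a single gene. Gene by gene, *Aqp4* (0.77) and *Gfap* (0.48) of astrocytes and *Mbp* (0.47) of oligodendrocytes lay above that range. *Syt1* of neurons (-0.46) lay below it, and the other genes of these 3 lists lay inside. The T and NK cell sum (-0.45) was also below it. The part of these differences in the ratios of the members was not tested.

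**Figure D4:**
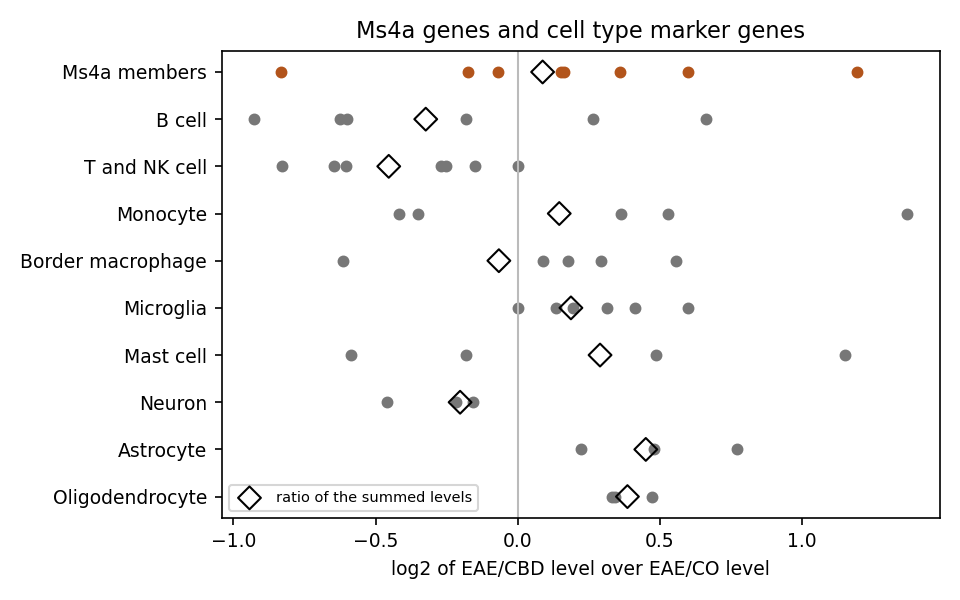
Log2 of the EAE/CBD level over the EAE/CO level (x axis) for each member (top row) and for each gene of 9 cell type lists (dots), with the ratio of the summed levels of each row (open diamonds). *Ighm*, at 0 in both tables, is not drawn. The diamond of the members (0.09) lies between that of T and NK cells (-0.45) and that of astrocytes (0.45).

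Of the other 13 *Ms4a* genes, 8 were listed at 0 in both tables. They were *Ms4a2*, *Ms4a5*, *Ms4a10*, *Ms4a12*, *Ms4a13*, *Ms4a18*, *Ms4a19* and *Ms4a20*. *Ms4a15* was the highest of the remaining 5, at 1.39 in the EAE/CBD and 1.1 in the EAE/CO table, above *Ms4a1* in both. *Ms4a4d*, a close copy of *Ms4a4c* with 75.6% identical residues, had 0.57 and 0.1, and it shares the stretch of 193 bases with *Ms4a4b*. *Ms4a8a* had 0.38 and 0.2, *Ms4a3* 0.07 and 0.1, and *Ms4a14* 0.09 and 0.06. *Tmem176a* and *Tmem176b*, related genes on chromosome 6 that are expressed in dendritic cells and other myeloid cells, were higher than every *Ms4a* gene, with levels of 34.13 and 32.54 for *Tmem176a* and 31.04 and 31.88 for *Tmem176b*.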

How the data were processed

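Whole-brain RNA of 12 mice with EAE was sequenced as paired reads of 150 bases. The authors trimmed the reads, mapped them to GRCm39 and used CLC Genomics Workbench with default parameters (version not stated). GRCm38 is also named in the submitters' processing notes. Of 40301 listed genes compared, 99.96% overlapped the GENCODE M39 gene of that name on GRCm39. The signal used is the larger of 2 group means, deposited by the authors without a stated unit. The tables' other columns hold the authors' own comparisons (fold change, p-value and corrected p-values) and were not used, nor were the lists of genes picked by them. The number of columns of single samples was 0, so no test, standard deviation or depth per sample was possible.

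Samples were grouped by the labels. Levels, percentiles among genes above 0 and log2 ratios without a pseudocount were computed with pandas 2.3.3 and numpy 2.4.6 on Python 3.11.15, and figures with matplotlib 3.10.9. A table of RefSeq proteins was not used here. Proteins were instead translated from the main (Ensembl canonical) GENCODE transcripts and aligned globally with Biopython 1.88 (BLOSUM62, gap penalties 11 and 1), identity being counted over aligned pairs. Hydrophobic stretches were windows of 19 residues with a Kyte-Doolittle mean of at least 1.6. The steps were tested on simulated data. Named were all members, other *Ms4a* genes that reached 0.1 in a table, *Tmem176a*, *Tmem176b* and the highest and lowest gene of each list, of which some are not reported here. *Ms4a14*, *Chil3*, *Tmem119*, *Mbp*, *Syt1*, the *Ms4a* genes at 0 and the genes that overlap members were added after their values were seen. Members and lists were chosen with earlier results of these data known. Alternatives were the copy of the EAE/CO table in the other direction, other sets of ranked genes, pseudocounts, centring, other minimum levels and another denominator of identity.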

Additional observations from a re-analysis of the deposited data

How the results depend on the processing

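No paired analysis was possible because the tables hold no values per mouse, and for the same reason no mouse could be left out in turn. The EAE/CO table listed in the other direction gave the same level for every gene. The larger mean does not depend on which group is listed first, so this says nothing about the processing. The median percentile of the 8 members, 43.9 in the EAE/CBD and 43.2 in the EAE/CO table among genes above 0, was 80.2 and 80.2 among all listed genes and 21.7 and 20.7 among genes with a level of at least 1. The median log2 ratio of the members, 0.16, was 0.15 with 0.1 added to both levels, 0.13 with 1 added, 0.12 after centring on the median of all genes and 0.15 without *Ms4a1* (chosen after seeing the data). With 1 added, the log2 ratio of *Ms4a1* was 0.12 in place of 1.19. Adding the same amount to both levels cannot change the sign of a ratio. Centring could, and it changed the sign for no member. The median identity of the pairs was 32.5% over aligned residues and 30.3% over the length of the shorter protein.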
